A study of Mus musculus with 6 samples.

Results

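The genes of the lysosome were taken as the 123 rows, of 33919 in the deposited table, whose KEGG column carries the Lysosome term, a rule that uses no expression value. The series holds RNA sequencing of 6 libraries labelled as mouse aorta, 3 of genotype WT and 3 of genotype KO, all from mice treated with Ang II (angiotensin II, a hormone peptide that raises blood pressure). The title of the series speaks of OTUD1, an enzyme that removes ubiquitin from proteins, in endothelium and of SMAD3, and the design text speaks of 3 mice per group. The extraction protocol in the labels speaks of an adipose tissue rather than aorta, and the sources used here state neither dose, time, strain and age nor the allele behind the label KO or any promoter driving its deletion. They name no individual animals either, so that a p-value here reflects the spread among libraries, which may be technical.

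The lysosome is the acidic compartment in which cells break down proteins, glycans, lipids and nucleic acids that arrive by endocytosis, phagocytosis and autophagy. Soluble hydrolases are tagged with mannose 6-phosphate in the Golgi and carried to it by receptors, clathrin and adaptor complexes, a proton pump (the V-ATPase) acidifies the lumen, and heavily glycosylated membrane proteins line it. In the vessel wall, lysosomal cathepsins are known for degrading elastin and collagen when they are secreted, and macrophages and osteoclasts are especially rich in several of them. Many lysosomal genes carry a binding motif for TFEB and its relatives, transcription factors that mTORC1 keeps out of the nucleus.

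Some facts of the libraries bear on every value below. Total counts ran from 62.3 to 71.5 M (megacounts) per library, and 17.3 to 23.4 M once genes of the mitochondrial genome and annotated nuclear copies of it are set aside. These took 71.1% to 73.7% of counts in the WT-labelled libraries and 64.8% to 67.8% in the KO-labelled ones. The transcript of Otud1 went against the label KO (14.5, 15.6 and 16.8 CPM in KO against 8.83, 11.6 and 9.83 CPM in WT, log2 change 0.63, SE 0.12, adjusted p = 0.0039). WT and KO below therefore mean the label a library carries, not a checked genotype, and each direction is that of KO against WT. CPM (counts scaled to a common library total) were corrected by TMM, the trimmed mean of M values, and an adjusted p is that of edgeR's quasi-likelihood test with Benjamini-Hochberg adjustment over 16620 genes, with a threshold of 0.05. Of 20 skeletal muscle fibre markers 13 were higher and 4 lower, with summed levels of 26231 to 26759 CPM in the WT-labelled libraries and 32908 to 33981 CPM in KO. Summed smooth muscle markers, by contrast, which should define an aorta, ran from 621 to 634 CPM and from 273 to 277 CPM, with 8 of 10 lower and 1 higher. Among 20 markers of macrophages and monocytes 7 fell and 0 rose (251 to 268 CPM and 182 to 183 CPM summed), and of 10 fibroblast markers 9 were lower and 0 higher (627 to 657 CPM and 220.4 to 244.9 CPM). Of 7 tested neutrophil markers 4 were higher and 0 lower (2.51 to 3.63 CPM and 25.7 to 30.1 CPM summed over all 12 listed), with Elane, Camp and Ngp at 0 in all 6 libraries. Fat cell markers were more abundant than those of smooth muscle (2593 to 2655 CPM and 2543 to 2661 CPM summed), with 4 of 10 higher and 4 lower. Endothelial markers ran from 671 to 688 CPM and from 634 to 639 CPM, with 2 of 10 higher and 3 lower. In whole tissue, fewer cells of a type and less RNA per cell cannot be told apart, and the part of these cell types in the results on lysosomal genes was not tested except where a value is given.

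Lysosomal genes did not move one way. Of the 123 members 115 had enough counts to be tested, and 17 of them (14.8%) were higher and 16 (13.9%) lower, while over all genes tested 11.5% were higher and 10.5% lower (22.0% called in all). The median log2 change was 0.02 over the members and -0.02 over all genes. The 3 KO-labelled libraries all lay above the 3 WT-labelled ones for 30 members and all below for 26, against 19.3% and 19.4% of all genes, 38.6% in both directions. Most called changes were small: 4 of the 33 members called had a fitted change of at least 2-fold, namely Ap4b1 upward and Ctsk, Atp6v0a4 and Ap1m2 downward, and for Ap1m2, with no count in KO, only the bound given below holds. Without the second KO-labelled library the count of members called lower fell to 10. The scale mattered for the balance. In the authors' FPKM (fragments per kilobase of gene and per library total), which are not scaled by TMM, limma on log2(FPKM + 1) called 24 members higher and 3 lower among 101 tested, so that 88.9% of its calls were higher against 51.5% on counts. The table as a whole shifted by a median of 0.11 on that scale, and 76.1% of its calls over all genes were higher against 52.1% on counts. With median-ratio scaling of the same FPKM the members' calls were 15 higher and 17 lower. All of the 17 members higher on counts also passed on the unscaled FPKM, as did 3 of the 16 lower ones (Ctsk, Ctss and Ctsc), and no called member changed sign in any of 17 alternative settings in which it was tested.

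**Figure D1:**
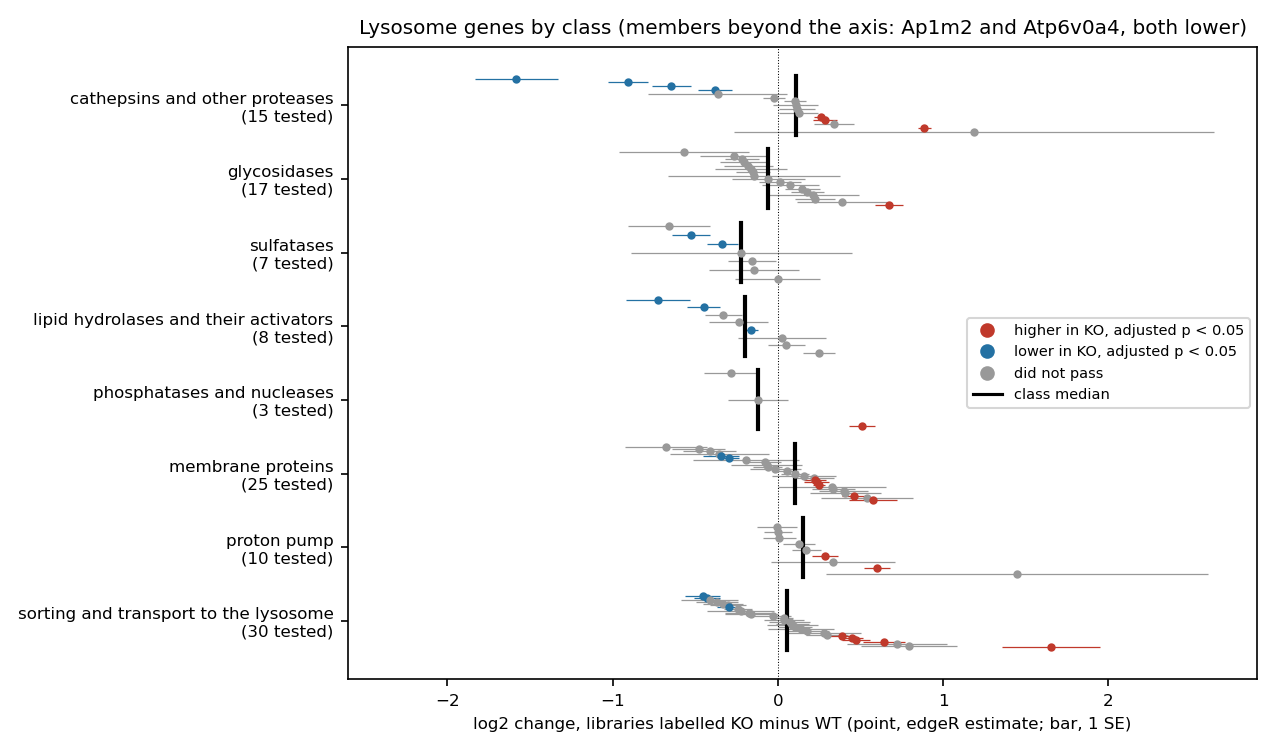
Log2 change (horizontal axis, KO-labelled libraries minus WT, edgeR estimate with 1 SE) of the tested Lysosome members by class, coloured by call, with the class median as a black bar. Calls go both ways among proteases, membrane proteins and sorting genes, the called sulfatases and lipid genes are all lower, and 1 of 17 glycosidases is called; Ap1m2 and Atp6v0a4 lie beyond the axis.

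**Figure D2:**
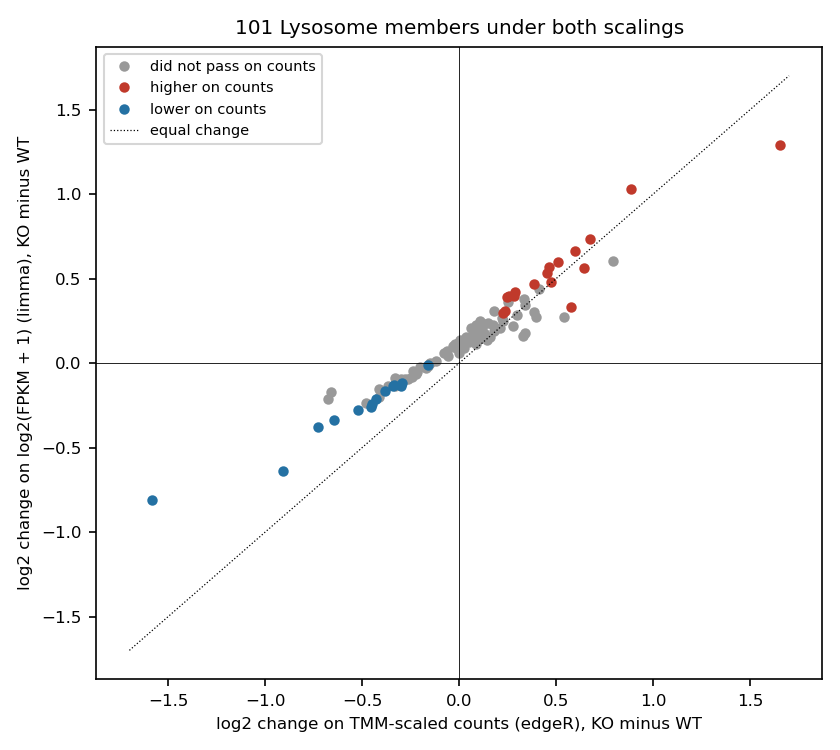
Log2 change of the 101 members tested on both scales, with TMM-scaled counts on the horizontal and log2(FPKM + 1) on the vertical axis, both as KO-labelled libraries minus WT. Most points lie above the line of equal change, so that members lower on counts come closer to 0 on the FPKM scale and those higher on counts remain above 0.

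The promoters of the members are shown because a motif known from lysosomal genes stood in several higher members and in no lower member that could be matched. RefSeq promoters (GRCm38.p6, from 250 bases before the annotated start to 50 after it) matched 97 of the 123 members by symbol. The E-box, CACGTG on both strands, was in a promoter of 24 of these 97 genes (24.7%), against 8.09% of the 27025 genes with a promoter in that table. Its 8-base forms TCACGTGA and GTCACGTG, which contain the E-box and approximate the TFEB motif, were in 10 (10.3%) and 20 (20.6%) members, against 1.12% and 2.55% of all genes. By call, the E-box was found in 7 of the 15 higher members with a promoter, in 0 of the 13 lower ones and in 17 of the 62 that did not pass. The 7 were Ctsd, Ctsa, Gaa, Lamp1, Mcoln1, Entpd4b and Atp6v0b. Of these, Ctsd, Gaa and Lamp1 were called in all 6 fits that left out 1 library. Ctsa, Mcoln1, Entpd4b and Atp6v0b lost their call in some of those fits, so the count by direction depends on calls that are not firm. Of all 17 higher members 12 kept their call in all 6 fits, and among these 12 an E-box was found only in Ctsd, Gaa and Lamp1. Some of the 12 may lack a matched promoter. The E-box share of all matched members was 24.7%. These motif counts are counts of letters and were not tested. They show neither binding nor its absence, and further copies may lie outside the window. Below are stretches at or before the RefSeq start of 6 higher members, picked because they hold the E-box, and of the 2 called cathepsins with the largest falls. Higher members without an E-box are not shown, so the stretches do not compare higher with lower members. They run 5′ to 3′ along the gene, with each complete E-box in capitals. Bases in a GENCODE M21 exon are left out. For Ctsd and Ctsa, whose RefSeq start lies inside such an exon, 30 bases around 1 E-box are given.
Ctsd (chr7:142387908-142387937, minus strand): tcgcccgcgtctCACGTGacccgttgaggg
Ctsa (chr2:164833749-164833778, plus strand): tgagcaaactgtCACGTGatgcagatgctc
Lamp1 (chr8:13159001-13159160, plus strand): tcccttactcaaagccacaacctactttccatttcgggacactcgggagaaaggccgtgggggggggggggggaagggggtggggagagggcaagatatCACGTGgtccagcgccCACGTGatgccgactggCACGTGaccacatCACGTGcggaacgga
Mcoln1 (chr8:3500359-3500456, plus strand): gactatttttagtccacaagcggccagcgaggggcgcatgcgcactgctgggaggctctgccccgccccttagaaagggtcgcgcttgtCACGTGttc
Atp6v0b (chr4:117887334-117887489, minus strand): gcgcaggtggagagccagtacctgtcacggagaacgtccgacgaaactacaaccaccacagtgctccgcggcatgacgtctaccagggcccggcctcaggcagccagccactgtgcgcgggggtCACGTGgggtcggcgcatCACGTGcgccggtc
Gaa (chr11:119267803-119267886, plus strand): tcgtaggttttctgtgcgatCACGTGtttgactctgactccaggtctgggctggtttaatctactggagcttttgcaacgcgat
Ctss (chr3:95526626-95526785, plus strand): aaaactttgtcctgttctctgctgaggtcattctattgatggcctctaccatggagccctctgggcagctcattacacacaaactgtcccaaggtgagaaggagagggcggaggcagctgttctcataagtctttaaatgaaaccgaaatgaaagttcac
Ctsk (chr3:95499050-95499209, plus strand): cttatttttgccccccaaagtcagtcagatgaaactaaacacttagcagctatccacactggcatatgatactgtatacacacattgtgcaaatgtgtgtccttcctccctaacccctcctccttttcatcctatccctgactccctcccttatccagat
In Lamp1, 4 E-boxes lie 61, 45, 28 and 15 bases before the start, more than in any other member. In Atp6v0b they begin 36 and 18 bases and in Mcoln1 71 and 45 bases before the start, the nearer one of Mcoln1 lying past the end of the stretch shown. The single E-box of Gaa begins 140 bases before the start, without the longer flanks, and those of Ctsd begin 245 and 98 bases before it, the nearer one being shown. In Ctsa 1 E-box begins 12 bases before the start. Another begins 5 bases past the start, at the last base of the stretch shown. No E-box was found in the whole window of Ctss or Ctsk.

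**Figure D3:**
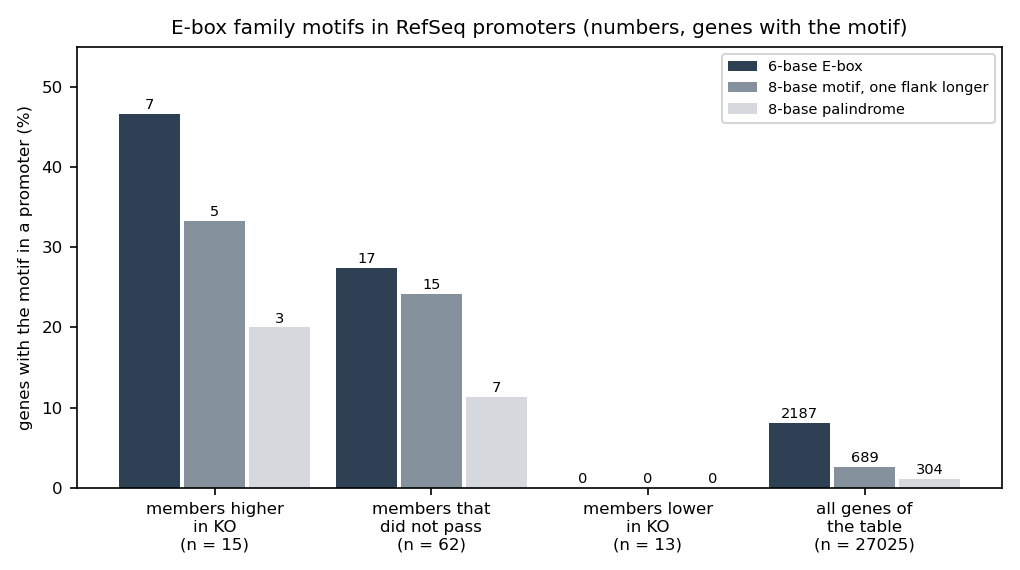
Share of genes (vertical axis, percent) with each motif of the E-box family in a RefSeq promoter, for members higher, not passing and lower in the KO-labelled libraries and for all genes of the promoter table; numbers above bars are genes with the motif. The E-box is in 7 of 15 higher, 17 of 62 other and 0 of 13 lower members.

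Among the cathepsins and other proteases, cathepsins D, B and A were higher and cathepsins S, K, C and H lower. Of 19 members 15 were tested, 3 were higher (Ctsd, Ctsb, Ctsa) and 4 lower (Ctss, Ctsk, Ctsc, Ctsh), with a median of 0.11. That made 20% higher and 26.7% lower, against 11.5% and 10.5% of all genes. Ctsd (chromosome 7, 142375911 to 142388038, minus strand, GRCm38) encodes cathepsin D, the main aspartic protease of the lysosome, and had 259, 263 and 252 CPM in the WT-labelled libraries and 478, 491 and 462 CPM in the KO-labelled ones. Every KO-labelled library was thus above every WT-labelled library, by 1.85-fold (log2 change 0.89, SE 0.04, adjusted p = 7.4e-08), the smallest p of any member. Its FPKM was 94.2 ± 2.52 and 193.6 ± 10.3 (SD, n = 3 each), the highest of all members. The annotated exons of Ctsd share 34.4% of their bases with those of Gm49369, a gene model on the same strand, which may affect how reads were assigned. Ctsb, cathepsin B, a cysteine protease with both endopeptidase and carboxydipeptidase activity, had 178, 180.4 and 179 CPM in the WT-labelled libraries and 219, 215 and 208 CPM in the KO-labelled ones. The groups did not overlap, although the difference was small (log2 change 0.26, SE 0.04, adjusted p = 0.00092). Ctsa, cathepsin A (also called protective protein), which protects beta-galactosidase and neuraminidase in a complex, rose by 0.28 on the log2 scale (adjusted p = 0.017). Its call was lost without the first WT-labelled library and without the first or the second labelled KO (adjusted p 0.068 to 0.081).

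Ctss and Ctsk showed the clearest falls. Ctss (chromosome 3, 95526786 to 95556403, plus strand), a cathepsin of antigen-presenting cells that trims the invariant chain of MHC class II, had 12.2, 10.5 and 11.4 CPM in the WT-labelled libraries and 5.84, 5.86 and 6.49 CPM in the KO-labelled ones. The ranges were well apart, 1.87-fold lower in the KO-labelled libraries (log2 change -0.91, SE 0.12, adjusted p = 0.00034). Ctsk (chromosome 3, 95499256 to 95509362, plus strand), the collagen-degrading cathepsin best known from osteoclasts and also made by fibroblasts, had 3.16, 3.66 and 4.78 CPM in the WT-labelled libraries and 1.15, 1.35 and 1.36 CPM in the KO-labelled ones. That was 2.99-fold lower (log2 change -1.58, SE 0.25, adjusted p = 0.0011), with the third WT-labelled library the highest. Ctsc, which activates granule serine proteases, changed by -0.64 (adjusted p = 0.0029) and Ctsh, an aminopeptidase, by -0.38 (adjusted p = 0.023). The call for Ctsh was lost without the first WT-labelled library and without the second or the third labelled KO (adjusted p 0.052 to 0.086). These 4 genes fell in libraries where the 20 macrophage markers were 7 lower and 0 higher, Csf1r among them (log2 change -0.71, adjusted p = 0.00074), and where 9 of 10 fibroblast markers were lower; their part in the falls was not tested. Osteoclast and bone markers were low but also moved down, from 2.74 to 4.38 CPM summed over 8 genes in the WT-labelled libraries to 1.40 to 1.80 CPM in the KO-labelled ones, with 1 of 3 tested genes lower and Ibsp and Sp7 at 0 in all 6 libraries. Mast cell markers, whose granule proteases Ctsc activates, were lower in 4 of 6 tested genes and higher in 0, with sums of 13.9 to 21.1 CPM and 6.01 to 8.19 CPM. Markers of neutrophils, whose granules also hold proteases, went the other way, with 4 of 7 tested genes higher and 0 lower. The part of these cell types was not tested. Cathepsin L (Ctsl) had 50.5, 46.1 and 50.5 CPM in the WT-labelled libraries and 47.2, 46.7 and 51.0 CPM in the KO-labelled ones, and its groups overlapped (log2 change -0.02, adjusted p = 0.87). Of the other proteases, Ctsz, Lgmn (legumain), Ctso, Ctsf and Tpp1 (tripeptidyl peptidase) had log2 changes between 0.11 and 0.34 and did not pass. Napsa, of lung and kidney, and Ctsw, of lymphocytes, did not pass either. Ctsf passed without the third WT-labelled library (adjusted p = 0.041). Ctsg, a protease of neutrophil granules, and Ctsm, of the placenta, had 0 counts in all 6 libraries, and Ctse and Ctsj were too low to test. Of all members 49 share annotated exon bases with another gene and 14 share more than 20% of them, which limits how their reads can be assigned. Besides Ctsd, the genes described here with more than 20% are Ap4b1 (82.4%), Hyal1 (51.9%), Gnptg (49.5%), Arsb (39.9%), Entpd4 (30.4%), Dnase2a (30%), Ap3m1 (29.8%), Ctsl (26.8%) and Entpd4b (25.4%).

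**Figure D4:**
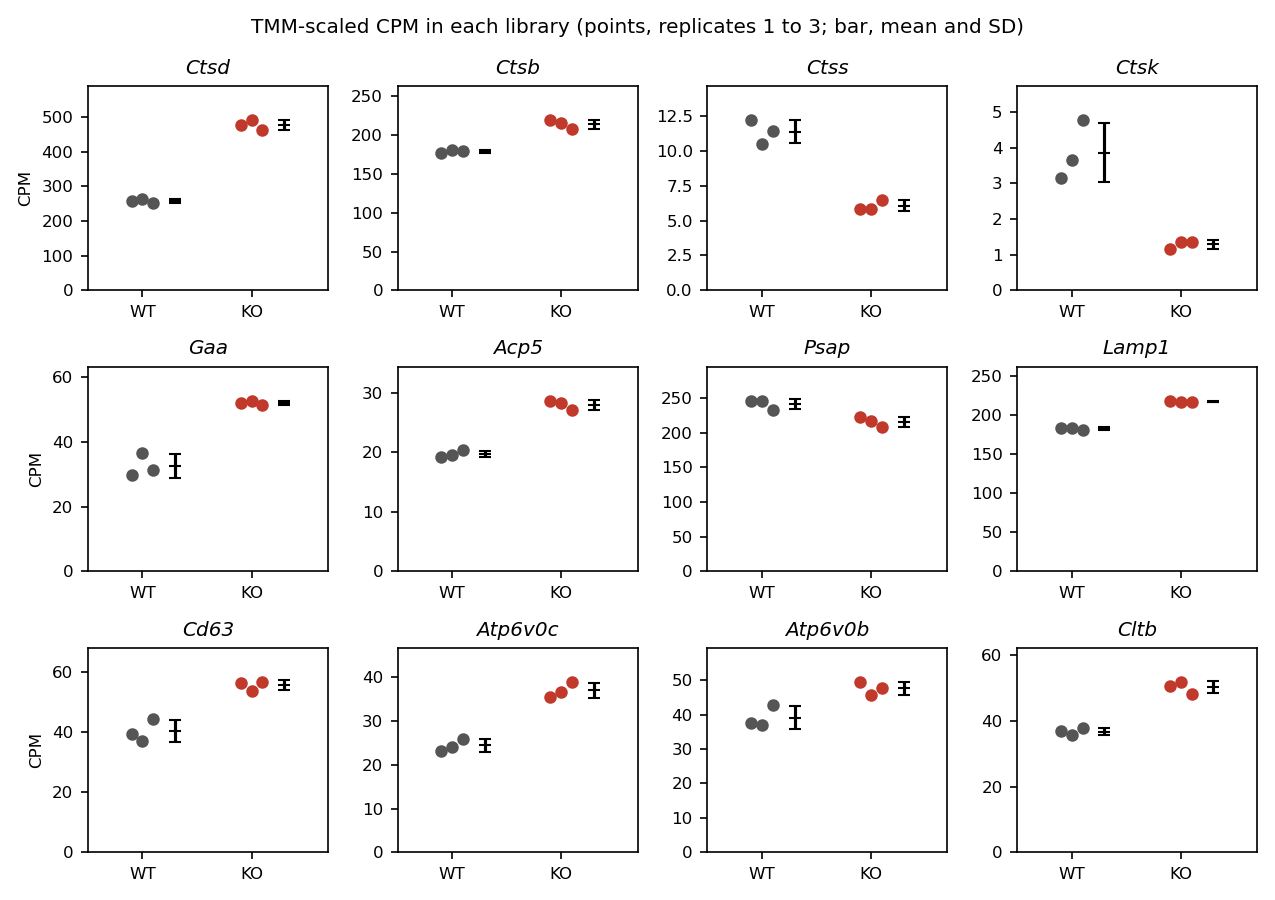
TMM-scaled CPM (vertical axes from 0) of 12 called members in each of the 6 libraries, 3 labelled WT and 3 labelled KO, with the mean and SD beside each group. The groups do not overlap in any panel; Ctss, Ctsk and Psap are lower and the other 9 genes higher in the KO-labelled libraries.

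The glycosidases, which strip sugars from glycogen, glycoproteins, glycolipids and glycosaminoglycans, did not pass with the exception of acid alpha-glucosidase. Of 17 tested members 1 was higher and 0 lower (5.9% called, against 22.0% of all genes), with a median of -0.06, and no further glycosidase had an unadjusted p below 0.05. Gaa (chromosome 11, 119267887 to 119285454, plus strand), which degrades glycogen in the lysosome and whose loss causes Pompe disease, had 29.7, 36.7 and 31.5 CPM in the WT-labelled libraries and 52.0, 52.7 and 51.5 CPM in the KO-labelled ones. The lowest KO-labelled library stood well above the highest WT-labelled one, by 1.60-fold on average (log2 change 0.67, SE 0.08, adjusted p = 0.00020). Hexa, the alpha subunit of beta-hexosaminidase, had 28.1, 31.9 and 33.1 CPM in the WT-labelled libraries and 35.6, 39.1 and 30.6 CPM in the KO-labelled ones, with overlapping groups (log2 change 0.18, adjusted p = 0.26). The other 15, among them Glb1, Neu1, Fuca1, Gusb, Naglu and Man2b1, had log2 changes between -0.57 (Hyal1) and 0.39 (Aga). Aga is counted in this class although its enzyme is an amidase and not a glycosidase in the strict sense. DESeq2, too, called Gaa and no other glycosidase.

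Sulfatases and the lipid hydrolases with their activators were called in 1 direction. All 7 sulfatases, which remove sulfate from glycosaminoglycans and sulfolipids, had log2 estimates below 0 (median -0.22), though Galns was at -0.001 (adjusted p = 0.998). Called lower were 2 (28.6%, against 10.5% of all genes). With 1 library left out 6 or 7 estimates were below 0, and on unscaled log2(FPKM + 1) 4 of the 5 tested. DESeq2 put 6 of 7 below 0, and unscaled log2(FPKM + 1) without the filter 5 of 7 (median -0.0068). Ids, iduronate 2-sulfatase, had 17.9, 21.0 and 21.1 CPM in the WT-labelled libraries and 15.6, 13.8 and 12.3 CPM in the KO-labelled ones, with no overlap (log2 change -0.52, SE 0.11, adjusted p = 0.0072). Arsb, arylsulfatase B, was at -0.66 (adjusted p = 0.086) and passed without the second WT-labelled library (adjusted p = 0.040). Ids and Arsb both act on glycosaminoglycan chains. Of the 13 members that the table also places in glycosaminoglycan degradation 2 were lower (15.4%, against 10.5% of all genes) and 0 higher, with a median of -0.14.

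Of the 8 lipid hydrolases and activators 3 were lower (37.5%, against 10.5% of all genes) and 0 higher, with a median of -0.20. Gm2a, the GM2 activator, had 20.2, 22.6 and 21.8 CPM in the WT-labelled libraries and 14.5, 17.4 and 15.5 CPM in the KO-labelled ones (log2 change -0.45, SE 0.10, adjusted p = 0.0080), without overlap. Pla2g15, the lysosomal phospholipase A2, had 7.48, 7.02 and 9.83 CPM in the WT-labelled libraries and 6.15, 4.27 and 4.28 CPM in the KO-labelled ones, 1.65-fold lower (log2 change -0.73, SE 0.19, adjusted p = 0.020), a call lost without the third WT-labelled library and without the second or the third labelled KO (adjusted p 0.076 to 0.085). Psap, the precursor of the saposins that activate sphingolipid hydrolases, is among the 3 most abundant members, at 75.4 ± 1.73 FPKM in the WT-labelled libraries and 75.0 ± 5.16 in the KO-labelled ones. In CPM it had 245, 245 and 233 in the WT-labelled libraries and 222, 217 and 208 in the KO-labelled ones, so that its fall of 1.12-fold on counts (log2 change -0.16, SE 0.04, adjusted p = 0.021) all but vanished in FPKM (log2 change -0.01). It was also lost without the first or the second WT-labelled library and without the second or the third labelled KO (adjusted p 0.063 to 0.086). Smpd1, the acid sphingomyelinase, had 26.9, 29.7 and 32.7 CPM in the WT-labelled libraries and 38.9, 33.1 and 34.1 CPM in the KO-labelled ones and missed the threshold (log2 change 0.25, adjusted p = 0.091), with an adjusted p of 0.049 without the third WT-labelled library. Among the phosphatases and nucleases Acp5, the tartrate-resistant acid phosphatase of osteoclasts and macrophages, had 19.3, 19.6 and 20.4 CPM in the WT-labelled libraries and 28.6, 28.4 and 27.1 CPM in the KO-labelled ones, higher without overlap (log2 change 0.51, SE 0.08, adjusted p = 0.00094), which is opposite in direction to Ctsk, another osteoclast gene, and to the macrophage markers. Acp2, the lysosomal acid phosphatase of most cells, had 12.0, 11.0 and 11.6 CPM in the WT-labelled libraries and 11.9, 9.55 and 7.12 CPM in the KO-labelled ones (log2 change -0.28, adjusted p = 0.28), Dnase2a was at -0.12 (adjusted p = 0.71), and Dnase2b, a nuclease of the eye lens, had 0 counts.

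Membrane proteins of the lysosome changed in both directions. Of 25 tested 5 were higher (Lamp1, Cd63, Mcoln1, Entpd4, Entpd4b) and 2 lower (Npc2, Litaf), with a median of 0.10. That made 20% higher and 8% lower, against 11.5% and 10.5% of all genes. Npc2 itself is a soluble sterol carrier that works with the membrane protein Npc1. Lamp1 (chromosome 8, 13159161 to 13175338, plus strand), a main structural glycoprotein of the membrane, had 183, 183 and 180.4 CPM in the WT-labelled libraries and 217, 216 and 216 CPM in the KO-labelled ones. The SD within a group was 1.60 CPM for WT and 0.791 CPM for KO, and the increase was 1.19-fold (log2 change 0.25, SE 0.04, adjusted p = 0.00079). Its partner Lamp2, needed for fusion with autophagosomes, had 50.0, 49.7 and 42.5 CPM in the WT-labelled libraries and 39.8, 44.3 and 50.8 CPM in the KO-labelled ones, with overlapping groups (log2 change -0.08, adjusted p = 0.65). Whether the changes of Lamp1 and Lamp2 differ was not tested. Cd63, a tetraspanin of late endosomes and exosomes, had 39.3, 37.2 and 44.4 CPM in the WT-labelled libraries and 56.5, 53.6 and 56.7 CPM in the KO-labelled ones (log2 change 0.46, SE 0.08, adjusted p = 0.0014). All 3 KO-labelled libraries were higher. Mcoln1, the calcium channel TRPML1 of the lysosomal membrane, had 6.21, 5.22 and 5.53 CPM in the WT-labelled libraries and 7.44, 8.45 and 9.45 CPM in the KO-labelled ones (log2 change 0.58, SE 0.15, adjusted p = 0.015), a call lost without the second WT-labelled library or the third labelled KO (adjusted p = 0.056 and 0.066). Npc2 had 86.5, 85.3 and 95.6 CPM in the WT-labelled libraries and 73.2, 76.1 and 68.1 CPM in the KO-labelled ones, lower without overlap (log2 change -0.30, SE 0.07, adjusted p = 0.0073), whereas Npc1 was at 0.34 (adjusted p = 0.098). Entpd4 (0.22) and Entpd4b (0.23) are near copies of each other between which reads may be split, and both calls rested on the full set of libraries: Entpd4 passed in none of the 6 fits that left out 1 library (adjusted p 0.054 to 0.10) and Entpd4b in 1 of them (0.067 to 0.15 in the others). Litaf passed in 1 of them as well, without the first WT-labelled library (adjusted p 0.055 to 0.17 in the others). Laptm4a, in FPKM the most abundant of this class after Lamp1, had 74.3, 81.5 and 72.2 CPM in the WT-labelled libraries and 77.9, 77.0 and 82.5 CPM in the KO-labelled ones (log2 change 0.06, adjusted p = 0.57). Cd68, the scavenger receptor often used to stain macrophages, had 4.51, 4.94 and 3.16 CPM in the WT-labelled libraries and 6.25, 6.09 and 4.42 CPM in the KO-labelled ones, overlapping and not past the threshold (log2 change 0.41, adjusted p = 0.22). Laptm5, of leukocytes, was at -0.41 (adjusted p = 0.092). The transporters Ctns, Slc17a5, Slc11a1 and Slc11a2 also did not pass, though Slc11a2 did without the second WT-labelled library (adjusted p = 0.0499).

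In the proton pump 2 subunits of the membrane ring were higher and 7 of the 10 members did not pass. The 10 members are V0 sector subunits, which form the proton channel, with 1 V1 subunit and an accessory protein. Of these 2 were higher (20%) and 1 lower (10%), against 11.5% and 10.5% of all genes, with a median of 0.15. Atp6v0c (chromosome 17, 24163866 to 24169702, minus strand), the ring proteolipid that carries the protons, had 23.2, 24.1 and 26.0 CPM in the WT-labelled libraries and 35.5, 36.6 and 38.9 CPM in the KO-labelled ones, 1.51-fold higher with no overlap (log2 change 0.60, SE 0.08, adjusted p = 0.00031). Atp6v0b, the second ring subunit and at 16.4 ± 2.17 and 22.1 ± 1.55 FPKM the most abundant of these 10 transcripts per length, had 37.5, 36.8 and 42.8 CPM in the WT-labelled libraries and 49.4, 45.7 and 47.8 CPM in the KO-labelled ones (log2 change 0.29, SE 0.08, adjusted p = 0.021). That call was lost without the first or the second WT-labelled library and without the first or the third labelled KO (adjusted p 0.065 to 0.085). Of the 4 isoforms of the large a subunit, Tcirg1 (a3, of osteoclasts and macrophages) had 24.0, 22.2 and 23.2 CPM in the WT-labelled libraries and 27.9, 25.6 and 22.4 CPM in the KO-labelled ones (log2 change 0.13, adjusted p = 0.40), and Atp6v0a2 was at 0.17 (adjusted p = 0.21). Atp6v0a1 had 17.7, 4.09 and 12.9 CPM in the WT-labelled libraries, where the second stands apart, and 15.6, 15.0 and 13.3 in the KO-labelled ones. Atp6v0a4, of kidney and epididymis, had at most 56 counts in a library. With 0.491, 0.566 and 0.895 CPM in the WT-labelled libraries and 0, 0.109 and 0.0964 CPM in the KO-labelled ones it was lower on counts (log2 change -3.21, SE 1.04, adjusted p = 0.049), yet no fit that left out 1 library called it (adjusted p 0.071 to 0.17). The d subunit was almost entirely Atp6v0d1, with 16.0, 17.1 and 15.7 CPM in the WT-labelled libraries and 18.7, 16.4 and 13.6 CPM in the KO-labelled ones (log2 change -0.01, adjusted p = 0.98), while Atp6v0d2, of osteoclasts, had 0, 0.233 and 0.128 CPM in the WT-labelled libraries and 0.534, 0.178 and 0.276 CPM in the KO-labelled ones. The accessory protein Atp6ap1 was at 0.00 (adjusted p = 0.99) and the V1 subunit Atp6v1h at 0.01 (adjusted p = 0.96).

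Genes that sort enzymes to the lysosome were called in both directions. Of 30 tested 5 were higher (Cltb, Ap4b1, Ap1b1, Ap1g2, Gga1) and 4 lower (Ap3m1, Ap1m2, Ap3s1, Cltc), with a median of 0.05. That made 16.7% higher and 13.3% lower, not far from the 11.5% and 10.5% of all genes. Of the clathrin genes, Cltb, a light chain, had 36.8, 35.6 and 37.8 CPM in the WT-labelled libraries and 50.7, 51.8 and 48.1 CPM in the KO-labelled ones (log2 change 0.45, SE 0.07, adjusted p = 0.00060). The groups were clearly apart. The heavy chain Cltc went the other way, by -0.29 (adjusted p = 0.013), a call lost without the first KO-labelled library (adjusted p = 0.061). The other light chain, Clta, with 32.5, 31.6 and 28.6 CPM in the WT-labelled libraries and 28.1, 24.6 and 25.7 CPM in the KO-labelled ones, did not pass (log2 change -0.24, adjusted p = 0.072). Ap1b1, the beta subunit of the AP-1 adaptor at the Golgi, had 15.2, 15.7 and 16.0 CPM in the WT-labelled libraries and 22.9, 21.4 and 21.0 CPM in the KO-labelled ones (log2 change 0.47, SE 0.09, adjusted p = 0.0025), and Ap1g2 and Gga1, a related monomeric adaptor, rose by 0.64 and 0.39. In AP-3, which serves lysosome-related organelles, 2 subunits fell: Ap3m1 had 29.7, 29.4 and 29.5 CPM in the WT-labelled libraries and 21.0, 21.4 and 23.5 CPM in the KO-labelled ones (log2 change -0.43, SE 0.08, adjusted p = 0.0030) and Ap3s1 changed by -0.45 (adjusted p = 0.010). The exons of Ap3m1 share 29.8% of their bases with those of Vcl on the opposite strand. Ap1m2, the AP-1 subunit of epithelia, had 0.387, 0.250 and 0.256 CPM in the WT-labelled libraries and 0 counts in the KO-labelled ones. Against a floor of 12 counts per library it was at least 1.79-fold lower.

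Ap4b1, the beta subunit of the AP-4 adaptor, had the largest increase of any member, and its exons overlap another gene model. It had 4.16, 2.11 and 6.39 CPM in the WT-labelled libraries and 13.9, 13.0 and 13.0 CPM in the KO-labelled ones (log2 change 1.65, SE 0.30, adjusted p = 0.0023). Its exons share 82.4% of their bases with the gene model Gm43064 on the same strand, which held 3.50, 6.59 and 0 CPM in the WT-labelled libraries and 0.225, 0.246 and 0.895 CPM in the KO-labelled ones. Where Gm43064 was at 0, in the third WT-labelled library, Ap4b1 was highest of that group. Summed over both models the levels were 7.66, 8.70 and 6.39 CPM against 14.1, 13.2 and 13.9 CPM, a ratio of 1.81, so that the groups still did not overlap but the difference was smaller than for Ap4b1 alone. Of the mannose 6-phosphate machinery, the receptor M6pr had 14.5, 16.5 and 17.9 CPM in the WT-labelled libraries and 11.4, 17.0 and 14.9 CPM in the KO-labelled ones (log2 change -0.17, adjusted p = 0.46). The larger receptor Igf2r, which also clears insulin-like growth factor 2, had 13.7, 13.2 and 13.5 CPM in the WT-labelled libraries and 13.5, 13.8 and 16.2 CPM in the KO-labelled ones (log2 change 0.10, adjusted p = 0.55), and the tagging enzyme subunit Gnptab had 5.76, 6.17 and 6.66 CPM in the WT-labelled libraries and 6.15, 5.84 and 7.78 CPM in the KO-labelled ones (log2 change 0.09, adjusted p = 0.75). The groups of all 3 overlapped. The AP-4 subunit Ap4s1, after Clta the most abundant sorting member in FPKM, had 15.3, 15.1 and 17.7 CPM in the WT-labelled libraries and 16.1, 17.0 and 18.0 CPM in the KO-labelled ones (log2 change 0.09, adjusted p = 0.61). Gnptg, Nagpa and Sumf1, which activates the sulfatases, did not pass either. Sort1, sortilin, was at -0.37 (adjusted p = 0.064) and passed without the third WT-labelled library (adjusted p = 0.016).

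The make-up of the lysosomal transcript pool shifted towards cathepsin D. Summed FPKM of the 123 members was 659 ± 30.6 in the WT-labelled libraries and 848 ± 43.8 in the KO-labelled ones (SD, n = 3 each), a sum in which a few genes weigh heavily and which carries the scale effect described above. Shares of that sum do not. Ctsd alone made up 14.4%, 14.5% and 14.0% in the WT-labelled libraries and 22.6%, 23.4% and 22.5% in the KO-labelled ones. Proteases as a class went from 28.4% ± 0.229 to 35.4% ± 0.432 (SD, n = 3 each), whereas the class without Ctsd went from 14.1% ± 0.264 to 12.6% ± 0.0752. Psap went from 11.5% ± 0.333 to 8.84% ± 0.154 and the sulfatases from 1.40% ± 0.0618 to 0.949% ± 0.0441. Lamp1 held 8.89% ± 0.0798 and 9.11% ± 0.137, and the proton pump 7.20% ± 0.277 and 7.23% ± 0.138, a difference within 1 SD. Because the shares are parts of a single whole, the larger share of Ctsd by itself lowers all the others. A lower or level share of another gene or class therefore does not show how its own level changed. These shares are a description and were not tested.

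**Figure D5:**
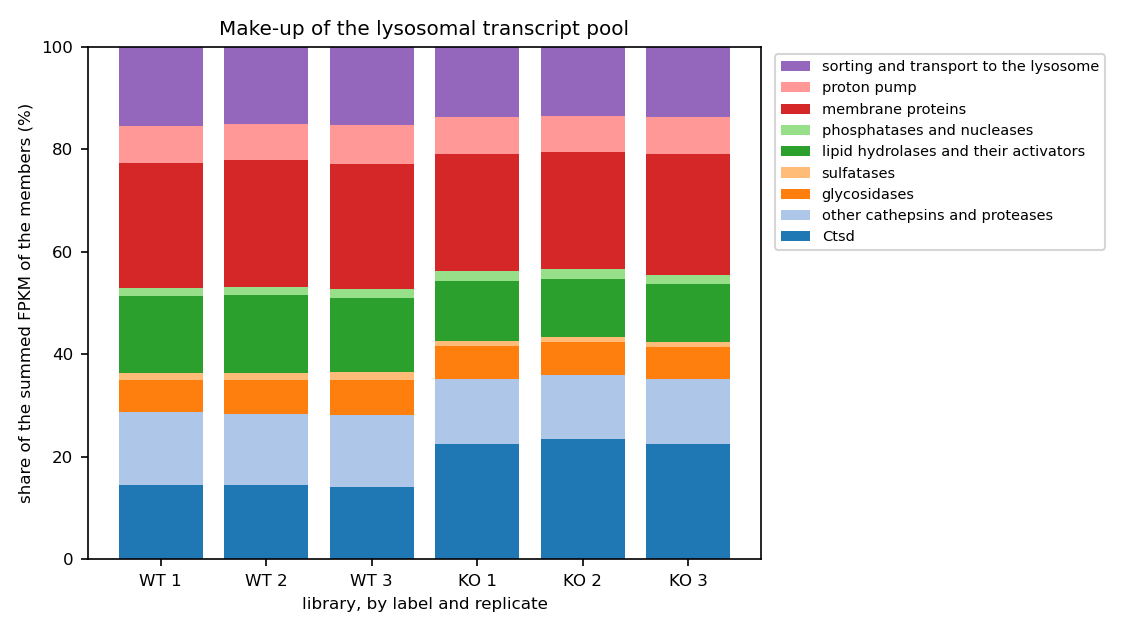
Share of the summed FPKM of the 123 members (vertical axis, percent) held by Ctsd and by each class in the 6 libraries, 3 labelled WT and 3 labelled KO. The Ctsd segment is 14.0% to 14.5% of the pool in the WT-labelled libraries and 22.5% to 23.4% in the KO-labelled ones.

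Other genes of the pathway lie outside the KEGG term. A list of 25 genes was made up of transcription factors of the lysosome, components of the mTORC1 machinery on its surface and Gpnmb, a glycoprotein of macrophages and melanocytes. Of these 8 were higher (32.0%, against 11.5% of all genes) and 1 lower (4%, against 10.5%), with a median of 0.12. The list was made with earlier results of these data known, so its share beside that of all genes is a description only. With 1 library left out 6 or 7 were higher and 0 to 2 lower. Mtor, the kinase itself, had 11.3, 9.86 and 11.7 CPM in the WT-labelled libraries and 21.5, 18.8 and 22.3 CPM in the KO-labelled ones (log2 change 0.93, SE 0.11, adjusted p = 0.00013). Flcn, folliculin, which acts on the Rag GTPases, had 22.6, 18.6 and 28.0 CPM in the WT-labelled libraries and 46.8, 45.5 and 49.8 CPM in the KO-labelled ones, 2.05-fold higher (log2 change 1.04, adjusted p = 0.00018). Rragd, the Rag GTPase D, rose by 0.77 (adjusted p = 0.00048) and Tsc2, which restrains mTORC1, by 0.33 (adjusted p = 0.0089). All 3 KO-labelled libraries were higher for each of these 4 genes. Tfeb had 16.4, 15.0 and 15.2 CPM in the WT-labelled libraries and 19.3, 23.8 and 18.9 CPM in the KO-labelled ones (log2 change 0.41, SE 0.11, adjusted p = 0.019), a call lost without the second or the third library labelled WT or the second labelled KO (adjusted p 0.062 to 0.083), while its relatives Tfe3 (log2 change -0.33, adjusted p = 0.29) and Mitf (log2 change -0.09, adjusted p = 0.82) did not pass. The gene that fell was Gpnmb, neither a factor nor a part of mTORC1 (log2 change -1.34, adjusted p = 0.025), not called without the second or the third library of either group (adjusted p 0.055 to 0.11).

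Of 36 genes of the autophagy machinery 7 were higher and 2 lower, with a median of 0.09, which makes 25% called against 22.0% of all genes. Without the first library labelled KO 3 were higher and 1 lower, and 4 to 6 were higher and 1 or 2 lower without any other library. Sqstm1, the cargo receptor p62, had 94.9, 91.6 and 91.4 CPM in the WT-labelled libraries and 148, 147 and 142 CPM in the KO-labelled ones, 1.57-fold higher without overlap (log2 change 0.65, adjusted p = 2.9e-06). Gabarap, which is lipidated on autophagosomes (log2 change 0.26, adjusted p = 0.0025), and Bnip3, a receptor for mitophagy (log2 change 0.37, adjusted p = 0.0026), rose, and Gabarapl1, a close relative of Gabarap, fell (log2 change -0.36, adjusted p = 0.0084). Of 16 tested genes of the V1 sector and pump assembly 3 were higher (18.8%) and 2 lower (12.5%), against 11.5% and 10.5% of all genes. The catalytic subunit Atp6v1a had 12.5, 11.8 and 13.4 CPM in the WT-labelled libraries and 7.09, 9.11 and 8.06 CPM in the KO-labelled ones (log2 change -0.64, adjusted p = 0.0039). Atp6v1b2 was also lower (log2 change -0.31, adjusted p = 0.028), and Atp6v1g1 (log2 change 0.31, adjusted p = 0.0051), Atp6v0e (log2 change 0.40, adjusted p = 0.010) and Atp6v1d (log2 change 0.33, adjusted p = 0.027) were higher. The call for Atp6v1b2 held only without the second library labelled KO (adjusted p 0.053 to 0.11 in the other 5 fits), and that for Atp6v1d only without the third library labelled KO or labelled WT (0.061 to 0.10 in the other 4). The calls within the pump thus went both ways in each sector. In V0, Atp6v0c, Atp6v0b and Atp6v0e were higher and Atp6v0a4 lower. In V1, Atp6v1g1 and Atp6v1d were higher and Atp6v1a and Atp6v1b2 lower. Of these, Atp6v0c, Atp6v0e, Atp6v1g1 and Atp6v1a kept their call in all 6 fits that left out 1 library. Of 8 tested cathepsin inhibitors 2 were higher (25%) and 3 lower (37.5%), against 11.5% and 10.5% of all genes, and 1 was lower without the second library labelled KO or the third labelled WT. Cst3, cystatin C, the main secreted inhibitor of cysteine cathepsins, had 226, 216 and 217 CPM in the WT-labelled libraries and 181, 174 and 176 CPM in the KO-labelled ones (log2 change -0.31, adjusted p = 0.00028). Ctla2a (log2 change -0.32, adjusted p = 0.023) and its close paralog Ctla2b (log2 change -0.57, adjusted p = 0.031) were the others, and reads may be split between these copies. The call for Ctla2a was lost without the second or the third library of either group (adjusted p 0.059 to 0.098), and that for Ctla2b without the first or the second labelled KO or the third labelled WT (0.098 to 0.12). Serpina3n (log2 change 1.42, adjusted p = 1.1e-05) and Serpinb6a (log2 change 0.53, adjusted p = 5.2e-05), which inhibit serine proteases, were higher.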

How the data were processed

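Poly(A) RNA of 6 aorta libraries, 3 labelled WT and 3 labelled KO, was read as Illumina paired ends (per the labels' protocols). The authors deposited whole-number gene counts without normalization and FPKM values per the file headers. The sources used here do not say how either was computed. Bowtie 0.12.2, HISAT2 2.0 and the build mm8 are listed, without roles, in the submitters' processing notes. Gene coordinates matched GENCODE M21 (GRCm38) exactly for 107 of the 123 members, so GRCm38 is used. Strand use in counting is not given, so overlapping genes are uncertain. The test on counts was that of edgeR 4.0.16 under R 4.3.3 (filterByExpr, TMM, quasi-likelihood, genotype only, 3 against 3). In simulated counts for all 16620 genes, 24 of 100 genes changed 1.5-fold and 66 of 100 changed 2-fold were recovered, with 8 false calls. Alternatives used DESeq2 1.42.0 and limma 3.58.1 on log2(FPKM + 1), among others. Between 33.0% and 34.9% of counts from 1 to 40 were multiples of 4 (25% by chance), so 1 read pair may often add 4 counts; a floor of 3 pairs, or 12 counts per library, was used for groups at 0, and it covers counting error only. No columns (0) of other samples were left aside, and 0 rows lacked a gene name. Members, classes, lists and motifs were chosen with earlier results of these data known. In each class the members with the smallest p among those called (up to 4), the most abundant (up to 2) and a fixed list were given by library; of each pathway list, the 4 with the smallest p; others were chosen after their values were seen. Some members this rule picks are not reported here. Figures were drawn with matplotlib 3.10.9.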

Additional observations from a re-analysis of the deposited data

How the results depend on the processing

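Of the 33 members called, 14 were called in all 17 alternatives (12 of 17 higher, 2 of 16 lower, Ctss and Ctsk). In all 6 fits that left out 1 library 21 were called (12 of 17 higher, 9 of 16 lower). The 17 alternatives include FPKM fits without median-ratio scaling, in which most calls over all genes were higher. Lower calls were thus less likely than higher ones to be kept in all 17. Leaving out 1 library gave 10 to 15 members lower. The median log2 change then ran from -0.10 to 0.025 for glycosidases, 0.047 to 0.12 for membrane proteins and 0.075 to 0.18 for the proton pump. In these fits 26 members changed sign, none (0) of them called; among those given by library, the estimates ran from -0.071 to 0.78 (Atp6v0a1), -0.068 to 0.0020 (Ctsl), -0.17 to 0.0057 (Lamp2), -0.12 to 0.11 (Atp6v0d1) and -0.047 to 0.17 (Gnptab). DESeq2 called 25 members and 2650 genes lower. The FPKM values lowered the count of members lower to 3 with either pseudocount and without the filter, and that of all genes to 868 (pseudocount 1), 845 (0.1) and 754 (no filter). In that order the medians were 0.12, 0.17 and 0.044 for glycosidases and 0.19, 0.33 and 0.16 for membrane proteins. With pseudocounts of 1 and 0.1 they were 0.19 and 0.255 for proteases and 0.227 and 0.29 for the proton pump. Ctsl was then at 0.11 and 0.13, Lamp2 at 0.059 and 0.070 and Atp6v0d1 at 0.12 and 0.13, and without the filter at 0.11, 0.059 and 0.12. With median-ratio scaling of FPKM the glycosidase median was -0.0019 and that of the proton pump 0.083. The cause of these differences was not tested beyond the scale effect in the report.

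Libraries share replicate numbers between the groups, but same-numbered libraries did not deviate together (correlations 0.024, -0.0086 and 0.018), so no pairing by number was seen. These correlations over all genes tested include counting noise and cannot exclude a weak pairing. With the replicate number as a block 15 members were higher and 16 lower (1703 and 1552 of all genes), and the calls for Entpd4, Entpd4b, Litaf and Atp6v0a4 were lost (adjusted p 0.054 to 0.077). Depth limits the members with few counts: 8 had at most 41 in any library and were not tested. The simulated counts did not measure this limit, since their changed genes left out those with the fewest counts.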
